A study of Mus musculus with 3 samples.

Results

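Serpins are a family of structurally related proteins, most of which inhibit serine or cysteine proteases by a suicide mechanism, in which the protease cuts an exposed reactive loop and is trapped. A minority do not inhibit proteases, among them the collagen chaperone HSP47, encoded by Serpinh1, and the anti-angiogenic factor PEDF, encoded by Serpinf1. Secreted clade A serpins are best known from liver and plasma, whereas clade B serpins stay mostly inside the cell. The levels of 8 serpin genes, Serpina1e, Serpina10, Serpina3n, Serpina3g, Serpinb1a, Serpine2, Serpinf1 and Serpinh1, were examined here in the stroma of mouse lymph nodes. They were taken by gene symbol and are 8 of the 68 serpin symbols and of the 51912 genes in the tables. They were selected on earlier results from these same libraries, including how far their counts differed between stromal types, so their levels between types are given as a description with no test.

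The study profiled Cxcl13-expressing stromal cells, which build the B cell follicles and the borders around them, by droplet single-cell RNA sequencing. All mice were C57BL/6 and carried a transgene in which the Cxcl13 promoter drives Cre and the red fluorescent protein tdTomato, so that the cells were already restricted to those in which that promoter was active. Live TdTomato+ cells that were Podoplanin+, CD31- and CD45- were sorted from lymph nodes pooled over several mice. In 2 libraries, called 2-IC here, the mice had received 2 antigen-immunocomplexes, the first 7 days and the second 24 hours before analysis, and in 1 library, called 1-IC, they had received 1 immunocomplex 24 hours before. The labels of the 2-IC libraries end in different tags, Biotin24h and Biotin7d, whose meaning is not given there, and the libraries are treated as 2-IC replicates 1 and 2.

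The deposited tables held 3790, 1029 and 667 barcodes for 2-IC replicate 1, 2-IC replicate 2 and 1-IC, with 20607903, 12788101 and 3766526 unique molecular identifiers (UMIs). After filtering, 2243 of 5486 barcodes were retained, with median depths of 4701, 14732 and 5979 UMIs in the same order. 2-IC replicate 2 stood apart as the deepest library per barcode. The 2-IC libraries shared 76 barcode sequences, and in 75 of these pairs the smaller copy held under 5% of the UMIs of the larger, while 2-IC replicate 1 and 1-IC shared 2. Leaving all shared sequences out moved the leading-gate ratio of 1 of the 7 serpins compared by more than its spread over libraries, as given for Serpinb1a, which is described with the Cr2 gate.

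Stromal types were gated by raw UMIs. The Cr2 gate, for follicular dendritic cells (FDCs, which hold immunocomplexes on complement receptors), needed at least 1 UMI of Cr2. The Madcam1 gate, for marginal reticular cells, needed Madcam1 without Cr2. The Tnfsf11 gate (interfollicular reticular cells), the Fmod gate (T-B border reticular cells) and the Inmt gate (medullary reticular cells) needed the named gene and none of the other 4 gate genes. The gates held 230, 83, 162, 100 and 633 barcodes in this order, 1208 in all, and 587 retained barcodes with several of Tnfsf11, Fmod and Inmt and 448 with no gate gene were kept apart. The Cr2 and Madcam1 gates could also hold Tnfsf11, Fmod and Inmt, and the Cr2 gate could hold Madcam1. Among the 145, 35 and 50 Cr2 barcodes of 2-IC replicate 1, 2-IC replicate 2 and 1-IC, 38, 7 and 1 held Inmt. Madcam1 was held by 56, 16 and 32 of them, Tnfsf11 by 30, 9 and 7, and Fmod by 15, 2 and 0. In the Madcam1 gate, 29, 12 and 11 of 50, 16 and 17 barcodes held Tnfsf11. The part of this overlap in the levels below was not tested. Whether a barcode holds a UMI of a gate gene depends on its depth. The Madcam1 gate could therefore hold cells that express Cr2 but gave no Cr2 UMI, and how many did was not tested. The smallest sum was the Fmod gate of 1-IC, with 10 barcodes and 67348 UMIs, where 1 UMI equals 14.8 CPM, that is, UMIs per 1000000 UMIs of the sum.

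Some of the markers listed for each type are given here by gate, and the others are not reported. The FDC genes Fcer2a and Coch averaged 198 and 214 CPM in the Cr2 gate and at most 10.0 and 53.7 CPM elsewhere. The T zone chemokine gene Ccl21a averaged 14340 CPM in the Fmod gate and 5556 CPM in the next gate, whereas Cxcl12, listed for both the T-B border and medullary types, averaged 6830 CPM in the Fmod gate and 8561 CPM in the Inmt gate. The marginal reticular genes Bst1 and Enpp2 were highest in the Madcam1 gate, at 570.4 and 4988 CPM, with 449.5 and 4107 CPM in the next gate of each, while Cxcl13 was higher in the Cr2 gate. The immediate-early gene Nr4a1, listed for the medullary type, was highest in the Inmt gate, at 553 CPM. The interfollicular label was the weakest, since Ch25h averaged 69.5 CPM in the Tnfsf11 gate and 102 CPM in the Madcam1 gate. The Tnfsf11 gate is therefore named below by its gate gene. T cell and endothelial lists of 6 and 7 genes summed to at most 21.3 and 15.9 CPM in any gate and library. The B cell list of 8 genes summed to 34.2 to 110.0 CPM in the Cr2 gate, with Cd79a and Cd79b at 0 because the filter removed them, and to 0 to 133 CPM in the other gates.

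Serpina1e belongs to a tandem cluster of near-identical α1-antitrypsin genes, so the sequence that tells it from its copies is shown first. It lies on chromosome 12 at 103946931 to 103958975 of GRCm38, on the minus strand. Over coding sequences of 1242 bases, Serpina1b, Serpina1c and Serpina1d were 96.3%, 96.5% and 96.3% identical to it. The 60 coding bases in which the copies differ most, bases 1114 to 1173 of the reading frame found in the GENCODE transcript, are given 5′ to 3′ with the differing bases in capitals (in Serpina1e, those at which any copy differs):
Serpina1e: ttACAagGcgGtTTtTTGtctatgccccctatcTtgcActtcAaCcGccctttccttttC
Serpina1b: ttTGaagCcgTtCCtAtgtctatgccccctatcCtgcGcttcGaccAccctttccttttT
Serpina1c: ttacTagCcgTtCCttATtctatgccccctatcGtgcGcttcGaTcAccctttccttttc
Serpina1d: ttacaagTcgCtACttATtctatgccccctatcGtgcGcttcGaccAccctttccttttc
Within this stretch Serpina1b and Serpina1c each differ from Serpina1e at 12 bases and Serpina1d at 10. The libraries count 3′ ends, so the last 500 bases of each transcript matter more for the counts. None of the 411 windows of 90 bases there was shared by any of the 8 serpins with another gene, whereas 21.9% of the windows of Serpina1a and 15.3% of those of Serpina1c were.

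RefSeq promoter sequences of build GRCm38.p6 were matched for 6 of the 8 serpins, with none for Serpina10 and Serpinb1a. The 250 bases before the RefSeq start are printed for the 3 clade A genes that held a motif of a factor known to act on liver or inflammatory genes, an HNF1-type site (GTTAAT) in Serpina1e and a κB-type site (GGG and TTCC with any 3 bases between) in Serpina3g and Serpina3n. The motif is in capitals. The windows are chr12:103956898-103957147 on the minus strand (which lies inside the GENCODE bounds of the gene), chr12:104235897-104236146 on the plus strand and chr12:104406458-104406707 on the plus strand:
Serpina1e: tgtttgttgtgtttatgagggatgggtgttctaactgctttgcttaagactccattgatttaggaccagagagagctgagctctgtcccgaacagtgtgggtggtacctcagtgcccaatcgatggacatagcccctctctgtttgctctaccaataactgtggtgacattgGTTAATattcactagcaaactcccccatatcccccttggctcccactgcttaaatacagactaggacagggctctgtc
Serpina3g: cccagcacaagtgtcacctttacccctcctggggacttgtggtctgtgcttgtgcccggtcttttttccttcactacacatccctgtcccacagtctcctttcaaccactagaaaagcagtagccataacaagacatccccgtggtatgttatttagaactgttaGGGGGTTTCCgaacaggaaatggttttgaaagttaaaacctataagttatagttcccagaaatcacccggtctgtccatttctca
Serpina3n: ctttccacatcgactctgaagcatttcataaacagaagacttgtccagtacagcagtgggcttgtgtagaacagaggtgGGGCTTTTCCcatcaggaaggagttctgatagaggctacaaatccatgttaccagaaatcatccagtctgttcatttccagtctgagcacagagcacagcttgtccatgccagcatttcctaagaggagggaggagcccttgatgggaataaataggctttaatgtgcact
In GENCODE, Serpina3g spans 104236245 to 104241939 and Serpina3n 104406729 to 104414329 of chromosome 12 on the plus strand, and Serpina10 spans 103614786 to 103631444 on the minus strand. The motifs begin 78, 85 and 171 bases before the start. On both strands, GTTAAT was found in 6.43% and the κB-type site in 4.65% of the 32851 promoters of this length. Of 3 other motifs searched on both strands, TTCNNNGAA (in 7.02% of promoters) was found once in Serpina3g, CCAAT (in 33.8%) was found 3 times each in Serpina1e and Serpinf1, and TTCNNGAA (in 7.17%) in none of the 6. The motifs were chosen after the values were seen, and a match describes letters only.

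The level of each serpin is the sum of its UMIs over the barcodes of a gate in a library, in CPM of all UMIs of those barcodes. Values are given for 2-IC replicate 1, 2-IC replicate 2 and 1-IC in this order, and ratios compare a gate with the mean of the other 4 gates in the same library after adding 10 CPM to both.

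**Figure D1:**
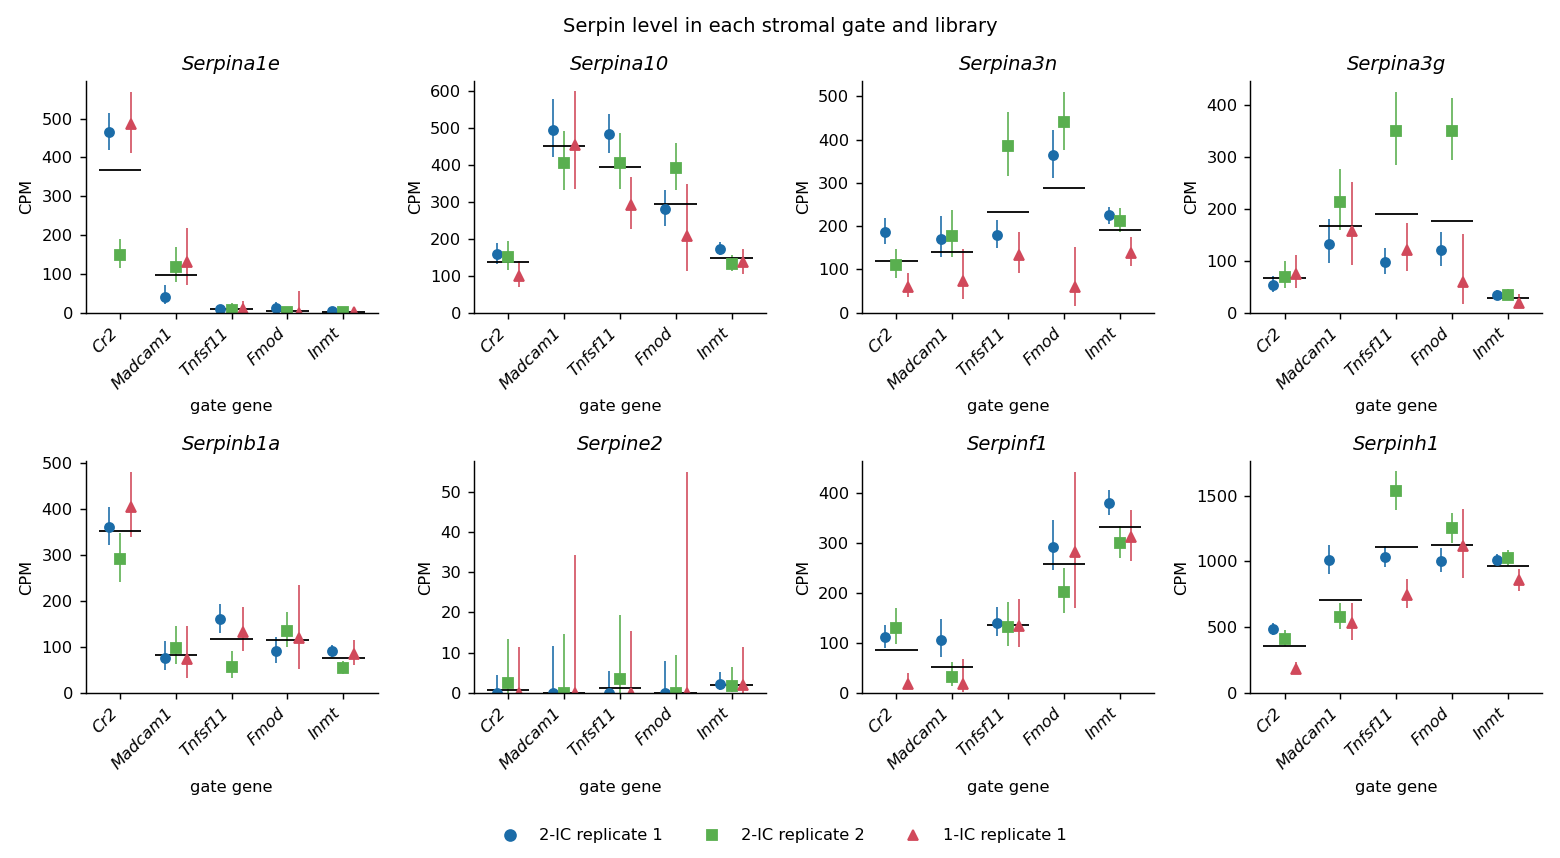
Level of the 8 serpins in CPM (vertical axes, linear, starting at 0) in the 5 gates (horizontal axes), with 1 point for each library, its exact Poisson 95% interval (counting error only) and a black bar for the mean of the 3 libraries. Serpina1e and Serpinb1a stand highest in the Cr2 gate in each library, Serpinf1 in the Inmt gate, and Serpine2 lies near 0 throughout.

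Serpina1e, a member of the α1-antitrypsin group of plasma serpins, was highest in the Cr2 gate. It reached 465, 149 and 486 CPM there and 41.2, 118 and 129.7 CPM in the Madcam1 gate. The Madcam1 levels rest on 13, 30 and 14 UMIs in 9 of 50, 3 of 16 and 4 of 17 barcodes. Serpina1e stayed at or under 12.9 CPM in the Tnfsf11, Fmod and Inmt gates. All 3 Cr2 sums lay above all 12 others, although the lowest of them, 149 CPM in 2-IC replicate 2, was close to the highest of the Madcam1 sums. The Cr2 gate exceeded the other gates by 3.17 ± 1.14 on the log2 scale (SD, n = 3), and by 3.81 without 2-IC replicate 2.

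The gene was carried by a subset of Cr2 barcodes, with a UMI in 42.8%, 45.7% and 52% of them. After thinning each barcode to 2000 UMIs these shares became 30.6%, 29.4% and 33.3%, against 0.704%, 0% and 0% in B cell barcodes, which serve as the background of free RNA. Thinned shares were 4.44%, 7.14% and 13.3% in the Madcam1 gate, from only 2 of 45, 1 of 14 and 2 of 15 barcodes. In the Inmt gate they were 0.481%, 0% and 0%, at the level of the background. The zeros in B cells allow shares of up to 6.67% and 1.99% at the 45 and 151 barcodes counted. B cell barcodes had median depths of 3301, 5845 and 3141 UMIs, and Cr2 barcodes 5166, 10091 and 4837 UMIs.

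Serpina1e was also uneven within the Cr2 gate. Cr2 barcodes with a Madcam1 UMI held 730.1, 237 and 526 CPM, and those without held 252, 80.7 and 367 CPM, so it was higher beside Madcam1 in each library. Serpina10 was also higher beside Madcam1 in each library, at 191, 193 and 125 CPM against 132, 119 and 24.5 CPM. So were Serpinb1a, at 536, 358 and 451 CPM against 220, 238 and 269 CPM, and Serpina3g, at 74.3, 121 and 96.0 CPM against 36.3, 29.7 and 12.2 CPM. The 1-IC levels without Madcam1 rest on only 1 UMI of Serpina3g and 2 UMIs of Serpina10 in 18 barcodes. Serpina3n was little different, at 173, 99.1 and 58.5 CPM beside Madcam1 against 198, 119 and 61.2 CPM, the 1-IC values from 14 and 5 UMIs. Serpinf1 and Serpinh1 were lower beside Madcam1 in the 2-IC libraries. A single barcode held as many as 37, 54 and 46 UMIs of Serpina1e, out of 900, 297 and 250 in all deposited barcodes.

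Serpinb1a, an intracellular inhibitor of neutrophil serine proteases, lies on chromosome 13 at 32842092 to 32851185 and was also highest in the Cr2 gate. That gate held 361, 290.2 and 405 CPM, and the other 4 gates ranged from 53.6 to 159.8 CPM. No sum of another gate reached the lowest Cr2 sum. The ratio was 1.75 ± 0.12 on the log2 scale (SD, n = 3). Below the Cr2 gate, the Tnfsf11, Fmod, Madcam1 and Inmt gates overlapped with their neighbours in the order of means. Compared within a library, the Fmod gate was above the Madcam1 gate in each library, while the order of the other neighbours changed between libraries.

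The lead of Serpinb1a moved with the share of Malat1, a nuclear non-coding RNA whose low share marks barcodes with little nuclear RNA. Malat1 made up under 1% of UMIs in 35, 10 and 18 of the 145, 35 and 50 Cr2 barcodes. Those held 668, 984 and 1327 CPM of Serpinb1a, and the rest held 299, 171 and 214 CPM. Without these Cr2 barcodes the ratio was 1.12, and without the shared barcode sequences it was 1.98. The Madcam1, Tnfsf11, Fmod and Inmt gates also held 9, 24, 15 and 99 barcodes with Malat1 under 1%. Those were kept in the comparison, and their level of Serpinb1a was not measured apart. Serpina1e was higher in the low-Malat1 Cr2 barcodes as well, at 753, 410.1 and 672 CPM against 407, 104 and 447 CPM. Its ratio without them stayed at 2.91.

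Serpinb1a was present outside the stroma. B cell barcodes held 204, 199 and 258 CPM, with a UMI after thinning in 31.0%, 31.1% and 42.4% of them, beside 36.4%, 35.3% and 45.2% of the Cr2 gate and 0% to 20% of the other gates. Before thinning the shares were 43.0%, 57.8% and 53.4% in B cell barcodes and 62.8%, 54.3% and 64% in the Cr2 gate. B cell barcodes are therefore no blank for this gene. The study reports CR2 on B cells too, at a lower density than on FDCs, so a Cr2 UMI alone does not tell them apart. When barcodes with any UMI of the B cell or myeloid lists were left out, the ratio was 1.83. Myeloid genes summed to 64.8 to 380 CPM in the Cr2 gate, the highest in 1-IC, and to 0 to 231 CPM in the other gates. The Cr2 gate of 1-IC held 96.5 CPM of S100a8 and 112 CPM of S100a9, genes of the myeloid list. Without the contaminant filter the Cr2 gate held 483 and 148 barcodes in 2-IC replicates 1 and 2, and the ratio was 0.99.

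**Figure D2:**
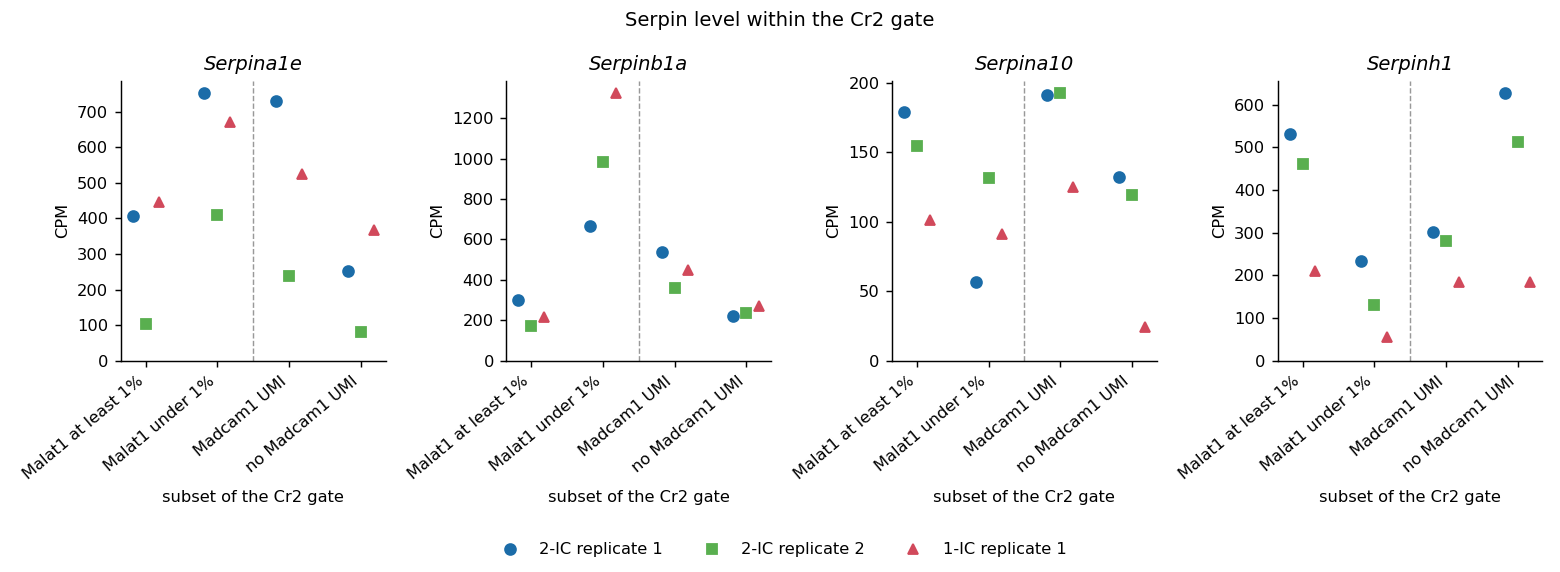
Level in CPM (vertical axes, linear from 0) of 4 serpins within the Cr2 gate, split by the share of Malat1 (left of the dashed line) or by a Madcam1 UMI (right), with 1 point for each library. In the 3 libraries Serpinb1a and Serpina1e are higher in the barcodes with Malat1 under 1%, and both are higher in those with a Madcam1 UMI.

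Serpina10 encodes protein Z-dependent protease inhibitor, which restrains coagulation factor Xa. Its level was highest in the Madcam1 gate, at 495, 405 and 454 CPM, and next in the Tnfsf11 gate, at 482, 406 and 290.4 CPM. The Fmod gate held 281, 391 and 208 CPM. These 3 gates overlapped from one to the next, although the Madcam1 and Tnfsf11 gates were above the Fmod gate within each library. The Inmt gate, at 173, 132 and 136 CPM, and the Cr2 gate, at 159, 151 and 99.6 CPM, lay below all of them and overlapped each other.

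The Madcam1 gate exceeded the others in Serpina10 by 0.89 ± 0.35 on the log2 scale (SD, n = 3), and the Cr2 gate was lower by a ratio of -1.19 ± 0.15. Thinned shares ran from 57.1% to 62.2% in the Madcam1 gate and from 46.4% to 53.3% in the Tnfsf11 gate, while none of the B cell barcodes held a UMI after thinning. With all barcodes thinned, the Tnfsf11 gate had the higher mean, 444 against 438 CPM, so the order of these neighbours turned with thinning. By mean, Serpina10 was lowest in the Cr2 gate, where Serpina1e was highest.

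Serpina3g, an intracellular inhibitor of cysteine cathepsins found in activated lymphocytes, set the Inmt gate apart by its low level. The Inmt sums were 34.8, 33.4 and 18.6 CPM, below the lowest of the other 12, which was 53.2 CPM in the Cr2 gate. The Tnfsf11 gate held 97.0, 350.4 and 120.3 CPM. The Fmod gate held 120.0, 349.8 and 59.4 CPM, and the Madcam1 gate 133, 212 and 158 CPM.

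Those 3 gates overlapped in Serpina3g and the leading gate changed with the library, being Madcam1 in 2-IC replicate 1 and 1-IC and Tnfsf11 in 2-IC replicate 2. The Inmt ratio was -1.95 ± 0.63 on the log2 scale (SD, n = 3), the Madcam1 ratio 0.64 ± 0.52, and the ratio of the Tnfsf11 gate, which had the highest mean level, 0.59 ± 0.43. Without 2-IC replicate 2 the Madcam1 gate led, with a mean of 145 CPM against 109 CPM in the Tnfsf11 gate. After thinning, 5.29%, 6.10% and 2.63% of Inmt barcodes held a UMI, against 4.23%, 8.89% and 8.61% of B cell barcodes. The Cr2 gate held a UMI in 7.44%, 11.8% and 11.9%, so the B cell range overlapped both gates. B cell barcodes held 19, 14 and 24 UMIs of Serpina3g and 1, 0 and 0 of Serpina10, so they are no blank for Serpina3g either. The gene lists used here and below were chosen with earlier results of these data known, so their calls are a description and no independent support. Of 10 interferon response genes tested in the fit described with the rest of the family, none passed the test in the Cr2, Tnfsf11 or Fmod gate. In the Madcam1 gate 1 fell, as did 1.32% of all genes, and in the Inmt gate 2 rose, as did 9% of all genes. Psmb8, an immunoproteasome subunit, was the gene that fell, by 0.72 on the log2 scale (edgeR adjusted p = 0.0130), while the chemokine genes Cxcl10 and Cxcl9 were at -1.20 and -2.30 in that gate (adjusted p = 0.521 and 0.126). The genes that rose in the Inmt gate, Gbp2 and Irf1 (named after their values were seen), were higher by 1.12 and 1.22 (adjusted p = 0.00162 and 8.61e-05).

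Serpina3n, a secreted acute-phase inhibitor of granzyme B and cathepsin G, had its highest mean in the Fmod gate. That gate led in both 2-IC libraries, with 364 and 439.8 CPM, but held 59.4 CPM in 1-IC, from 4 UMIs. The Tnfsf11 gate held 179, 385 and 133 CPM and the Inmt gate 225, 213 and 138 CPM. The Madcam1 and Cr2 gates ranged from 74.1 to 177 CPM and from 59.2 to 187 CPM. All neighbours in the order of means overlapped, although the Inmt gate was above the Madcam1 gate within each library. The Fmod ratio was 0.39 ± 0.93 on the log2 scale (SD, n = 3), positive in 2 of 3 libraries. Without 2-IC replicate 1 the Tnfsf11 gate led. Of 10 tested acute-phase and inflammatory genes, 5 fell in the Cr2 gate and 5 rose in the Inmt gate, with median log2 changes of -0.89 and 0.99, and none passed the test in the other gates. Of all genes, 7% fell in the Cr2 gate and 9% rose in the Inmt gate. Complement C3 was lower in the Cr2 gate by -1.21 and higher in the Inmt gate by 0.84 (edgeR adjusted p = 0.00764 and 0.0250). In the Inmt gate Junb was higher by 1.44 (adjusted p = 0.0105), and Cxcl1 was at 1.17 (adjusted p = 0.276).

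Serpinf1, the non-inhibitory PEDF, lies on chromosome 11 at 75409769 to 75422701 and was highest in the Inmt gate. The Inmt gate held 379.8, 299.9 and 311 CPM and the Fmod gate 291, 201 and 282 CPM. The Tnfsf11 gate followed with 140.3, 132 and 133 CPM, a narrow range. The Cr2 gate held 111, 129.5 and 18.7 CPM and the Madcam1 gate 105, 31.5 and 18.5 CPM.

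Among the gates ordered by mean Serpinf1, Inmt, Fmod, Tnfsf11 and Cr2 did not overlap with their neighbours, though the lowest Inmt sum exceeded the highest Fmod sum only by 299.9 against 291 CPM. The Cr2 and Madcam1 gates overlapped, although the Cr2 gate was higher within each library, in 1-IC only by 18.7 against 18.5 CPM. The Inmt ratio was 1.26 ± 0.11 on the log2 scale (SD, n = 3). Thinned shares in the Inmt gate were 49.8%, 37.8% and 30.3%, against at most 2.22% in B cell barcodes.

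Serpinh1, the chaperone HSP47 that binds procollagen in the endoplasmic reticulum, lies on chromosome 7 at 99345376 to 99353239 and set the Cr2 gate apart by its low level. That gate held 483, 413 and 184 CPM, below the lowest sum of every other gate, 528 CPM. The Fmod gate held 1005, 1249.9 and 1114 CPM and the Tnfsf11 gate 1036, 1534 and 747 CPM. The Inmt gate held 1012, 1025 and 858 CPM.

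The Madcam1 gate lay between, with 1009, 578 and 528 CPM of Serpinh1. It overlapped the gates above it, although the Inmt and Tnfsf11 gates were higher within each library. The Cr2 ratio was -1.51 ± 0.52 on the log2 scale (SD, n = 3), negative in each library, whereas the leading Fmod gate was only 0.53 ± 0.38 above the rest. In Cr2 barcodes with Malat1 under 1%, Serpinh1 was at 234, 131 and 54.5 CPM, and in the others at 532, 461 and 210.4 CPM, so the level was below the Inmt gate in both subsets. Cr2 barcodes with a Madcam1 UMI held 303, 281 and 184 CPM of Serpinh1, and those without held 627, 514 and 184 CPM. The low level in the 2-IC libraries thus lay more in the barcodes with Madcam1. Those without it in 2-IC replicate 1 were above the lowest Madcam1 gate sum, 528 CPM.

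Serpine2, protease nexin-1, an inhibitor of thrombin and urokinase, lies on chromosome 1 at 79794197 to 79861180 and marked no gate. The 5 gates held 5, 4 and 1 of its UMIs in the 3 libraries, 8 of them in the Inmt gate, and no UMI was found in the Madcam1 or Fmod gate. A count of 0 allows up to 3 counts, or 6.43 to 44.5 CPM in the Fmod gate. No fold is given. All deposited barcodes held 48, 45 and 5 UMIs, and a single barcode that was not retained held 17 of those in 2-IC replicate 2.

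**Figure D3:**
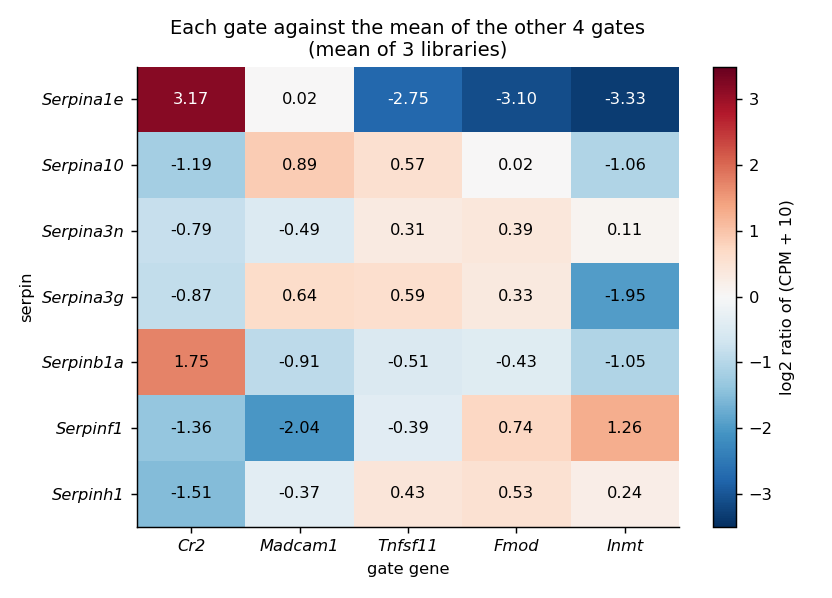
Mean over 3 libraries of the log2 ratio of CPM + 10 in each gate (columns) to the mean of the other 4 gates, for the 7 serpins with enough UMIs (rows), with the value in each cell. Red is higher and blue lower: Serpina1e (3.17) and Serpinb1a (1.75) are highest in the Cr2 column, and Serpinf1 (1.26) in the Inmt column.

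The separation of gates in the 3 libraries was set beside its frequency over all genes. Serpina1e, Serpinb1a and Serpinf1 were 3 of 8 serpins with the 3 libraries of 1 gate above every other sum, as were 5.36% of the 6755 genes that passed the filter of the fit. Serpina3g and Serpinh1 had 1 gate below every other sum, as did 2.18% of genes. Serpine2 did not pass that filter. Since the members were chosen on such differences, nothing is read from these counts.

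**Figure D4:**
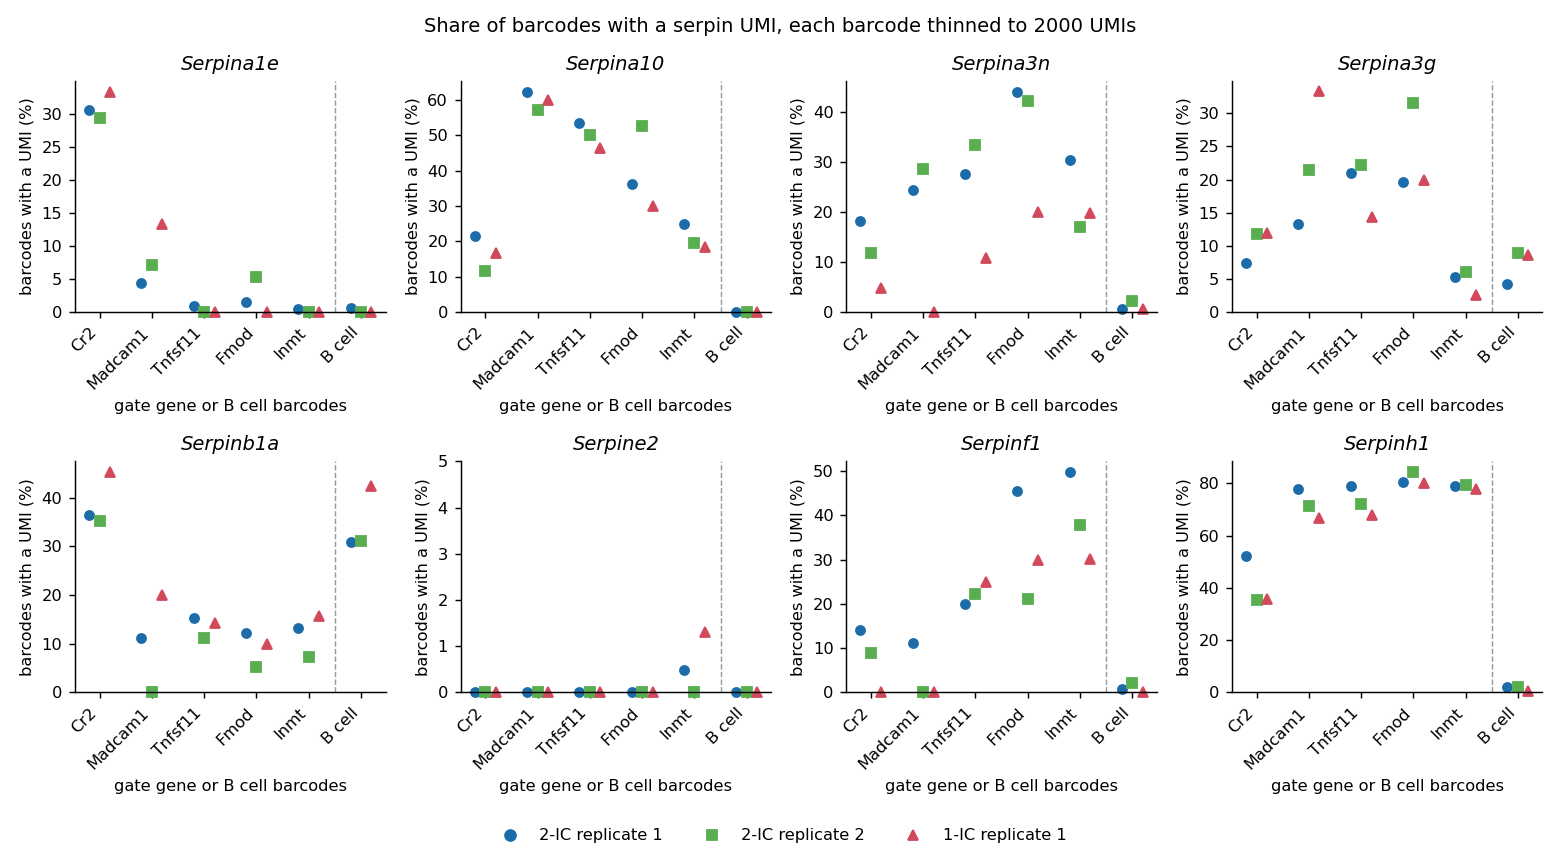
Share of barcodes with at least 1 UMI of each serpin (vertical axes, in percent) after each barcode was thinned to 2000 UMIs, in the 5 gates and, right of the dashed line, in B cell barcodes, with 1 point for each library. Serpinb1a is found in 31.0% to 42.4% of B cell barcodes and 35.3% to 45.2% of Cr2 barcodes, while Serpina1e and Serpinf1 are at most 2.22% in B cell barcodes.

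The fit across all genes gave the rest of the family its test. Counts summed by gate and library were compared by edgeR's quasi-likelihood test with the library as a block and Benjamini-Hochberg adjustment over 6755 genes, each gate against the mean of the other 4. Since the 8 members were selected on such differences, their calls are not given. The fit called 17.7% of all genes in the Cr2 gate, 3.36% in the Madcam1 gate, 1.07% in the Tnfsf11 gate, 4.06% in the Fmod gate and 15.2% in the Inmt gate, and 26.9% in at least 1 contrast. By direction, 10.7% of genes were higher and 7% lower in the Cr2 gate, and 2.04% and 1.32% in the Madcam1 gate. The same shares were 0.696% and 0.37% in the Tnfsf11 gate, 2.46% and 1.6% in the Fmod gate, and 9% and 6.17% in the Inmt gate. With 3 libraries of pooled mice and the library as a block, these p-values weigh a difference between gates against how far such differences vary from library to library. That variation may be technical.

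Of the 60 other serpins, 32 had no UMI in the gates and 9 passed the filter, of which 7 were called in at least 1 contrast. Serpina12, the adipokine vaspin, and Serpina1b, a copy of the α1-antitrypsin cluster, had higher means in the Cr2 and Madcam1 gates than elsewhere, as Serpina1e had. Serpina1b averaged 128.7 CPM in the Cr2 gate and 128.6 CPM in the Madcam1 gate. It averaged 48.6, 37.0 and 25.0 CPM in the Tnfsf11, Fmod and Inmt gates. Unlike Serpina1e, it had no lead of the Cr2 gate over the Madcam1 gate and was not near 0 elsewhere. Serpina12 averaged 56.4 ± 38.4 CPM in the Cr2 gate and 27.3 ± 21.5 CPM in the Madcam1 gate (SD, n = 3), with at most 2.99 CPM in any other sum. It was called higher in the Cr2 and Madcam1 gates (adjusted p = 7.47e-11 and 0.00110, edgeR), the latter lost without 2-IC replicate 1 (adjusted p = 0.168), with a fitted fold that is no bound because the other gates were near 0. Serpina1b was higher in the Cr2 gate by 1.36 on the log2 scale (standard error 0.18, adjusted p = 2.89e-07) and in the Madcam1 gate by 1.27 (adjusted p = 2.90e-04), and lower in the Inmt gate by a log2 change of -1.40 (adjusted p = 4.71e-06). The Madcam1 and Inmt calls of Serpina1b were lost after thinning, the Madcam1 call also without barcodes holding B cell or myeloid UMIs (adjusted p = 0.0978), and it was lower in the Fmod gate by -0.94 (adjusted p = 0.0487), which was lost in 8 of 14 alternatives. Of its 3′ windows, 3.65% were shared with Serpina1d, so a small part of its counts is uncertain.

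Serpinb8, an intracellular furin inhibitor, was higher in the Cr2 gate by 1.60 on the log2 scale (standard error 0.22, adjusted p = 6.00e-07), as Serpinb1a was by its level. Serping1, the C1 inhibitor of the classical complement pathway, followed the opposite order, averaging 840.3 CPM in the Cr2 gate, 1127 in the Madcam1 gate, 1687 in the Tnfsf11 gate, 2157 in the Fmod gate and 2276 in the Inmt gate. It was lower in the Cr2 gate by a log2 change of -1.04 (standard error 0.15, adjusted p = 7.43e-06) and higher in the Inmt gate by 0.85 (standard error 0.13, adjusted p = 3.66e-05). These calls of Serpinb8 and Serping1, and those of Serpina12 and Serpina1b in the Cr2 gate, kept their direction and threshold in all alternatives in which the gene was tested. Without the contaminant filter the Cr2 changes of Serpina1b and Serpinb8 were smaller, at 0.43 and 1.00 on the log2 scale (adjusted p = 0.0371 and 6.12e-04).

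The remaining calls did not pass the test in every alternative. Serping1 was lower in the Madcam1 gate by -0.62 and higher in the Fmod gate by 0.64 (adjusted p = 0.0185 and 0.00570), and both calls were lost without 2-IC replicate 1, at -0.56 and 0.57. The Madcam1 call was kept in 9 of 14 alternatives and the Fmod call in 12 of 14. Serpinb8 was lower in the Inmt gate by -0.92 (adjusted p = 0.00748), which was lost without 2-IC replicate 2 and without 1-IC, at -0.82 and -0.87. That call was kept in 9 of 13 alternatives. Serpinb9, which inhibits granzyme B, was higher in the Fmod gate by 1.01 on the log2 scale (adjusted p = 0.00207) and lower in the Cr2 gate by -0.73 (adjusted p = 0.0168), and the Fmod call was lost without 2-IC replicate 1 (0.93, adjusted p = 0.0986). The Cr2 call of Serpinb9 was lost when any 1 library was left out, at -0.82 to -0.67, and without barcodes holding B cell or myeloid UMIs it was at -0.08 (adjusted p = 0.933). Of 13 alternatives, 10 kept the Fmod call of Serpinb9 and 8 kept its Cr2 call. Serpinb6a was higher in the Inmt gate by 0.42 (edgeR adjusted p = 0.0353) and kept that call in 3 of 14 alternatives.

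Genes that work with Serpinh1 were examined as lists, which were chosen with earlier results of these data known, so their calls are a description only. Beside the counts below, 10.7% of all genes rose and 7% fell in the Cr2 gate, and 9% and 6.17% in the Inmt gate. In the Fmod gate 2.46% rose, and in the Tnfsf11 gate 0.696% rose and 0.37% fell. Of 11 tested genes for fibrillar, microfibrillar and basement membrane collagens, 10 fell in the Cr2 gate and 1, Col14a1, rose (named after its values were seen), with a median log2 change of -1.49 beside 0.01 for all genes. Col1a2, Col3a1 and Col1a1, the main fibrillar chains, were lower there by log2 changes of -1.12, -1.49 and -1.02 (standard errors 0.19, 0.35 and 0.19, adjusted p = 2.53e-04, 0.0183 and 9.37e-04). In the Inmt gate 7 rose and in the Fmod gate 4 rose, with medians of 0.64 and 0.77, and none fell in either. In the Tnfsf11 gate 1 rose and 1 fell, and in the Madcam1 gate none passed the test. Of 18 tested genes for procollagen folding and export, 4 fell and 1, Plod2 (named after its values were seen), rose in the Cr2 gate, with a median of -0.48. In the Inmt gate 1 rose and 1 fell, and none passed the test in the other gates. Among them, Ppib, a prolyl isomerase, and P4hb, a subunit of prolyl 4-hydroxylase, fell by 0.53 and 0.68 on the log2 scale (adjusted p = 0.00101 and 0.00147), while Crtap was at -0.39 (adjusted p = 0.145).

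Across the 15 sums, the pattern of Serpinh1 was most like that of Col4a2 and Col4a1, with Pearson correlations of 0.97 each, and Ifitm3, with 0.96, among 4024 genes. These are correlations of log2 levels centred on the library mean, over sums that share libraries and depth, and they carry no p. The 3 genes most like Serpina1e were Gcnt1 and Ubd, at 0.97, and Fabp5, at 0.96. Serpinf1 was most like Nrp1, at 0.98, and the chemokine genes Cxcl12 and Ccl11, at 0.96 each. Serpinb1a was most like Chka, Clmn and Sncg, at 0.92, 0.91 and 0.90. Serpina10 was most like H13, Man1a and Arhgap29, at 0.94, 0.91 and 0.91. For Serpina3n the nearest were Gas5, Rps18 and Timp1, at 0.91, 0.89 and 0.88, and for Serpina3g they were Tpm1, Ecscr and Slc15a3, at 0.91, 0.90 and 0.89.

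The known partners of inhibitory serpins were measured as well. Of all genes, 10.7% rose and 7% fell in the Cr2 gate, and 9% and 6.17% in the Inmt gate. The shares were 2.46% and 1.6% in the Fmod gate and 2.04% and 1.32% in the Madcam1 gate. Of 16 listed target proteases only 4 passed the filter, and in the Cr2 gate 1 rose and 2 fell, in the Fmod gate 1 rose and in the Inmt gate 1 fell. Ctss, encoding cathepsin S, was the gene that rose in the Cr2 gate and fell in the Inmt gate (named after its values were seen). Cathepsins L and B, encoded by Ctsl and Ctsb, were lower in the Cr2 gate by log2 changes of -0.48 and -0.41 (adjusted p = 0.00222 and 0.0400), and Htra1 was at -0.10 (adjusted p = 0.657). Of 10 tested clearance receptors and cofactors, 3 rose and 4 fell in the Cr2 gate, while 5 rose and 2 fell in the Inmt gate, and 1 rose and 1 fell in each of the Madcam1 and Fmod gates. Lrp1, the receptor that takes up serpin-protease complexes, was lower in the Cr2 gate by -1.22 (standard error 0.30, adjusted p = 0.0120) and higher in the Inmt gate by 1.31 (adjusted p = 0.00185). Vtn, which encodes the adhesive plasma and matrix protein vitronectin, was lower in the Cr2 gate by -1.77 (standard error 0.20, adjusted p = 2.44e-08) and higher in the Fmod gate by 1.59 (adjusted p = 9.36e-08). Rpsa, a ribosomal protein and laminin receptor, was at -0.31 in the Cr2 gate (adjusted p = 0.0403).

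Levels after 1 or 2 immunocomplexes could be set side by side only, because 1-IC is a single library, and no test between conditions was made. Serpina3n was lower in 1-IC than in both 2-IC libraries in all 5 gates, as were 5.17% of the 6755 genes. Summed over the gates it was at 222, 247 and 106 CPM, with exact Poisson 95% intervals of 208 to 236, 228 to 268 and 88.8 to 126 CPM, which cover counting error only. No member was above both 2-IC libraries in all 5 gates, as 3.24% of genes were.

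Serpinh1 was lower in 1-IC in 4 of 5 gates, and in 5 of 5 when the totals were scaled by TMM. Its sums over the gates were 917, 971 and 644 CPM. Serpina10 was lower in 3 of 5 gates, or 4 of 5 with TMM. Serpina1e was above both 2-IC libraries in 2 gates (1 with TMM) and below both in 1, and Serpinb1a above in 1 and below in 1. Serpinf1 and Serpina3g were below both in 2 gates, and Serpina3g above both in 1. The share of all genes with such counts in fewer than 5 gates, or with TMM, was not computed, so nothing is read from these counts. The number of immunocomplexes, the pool of mice and the library cannot be told apart here.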

How the data were processed

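Cxcl13-TdTomato+ stromal cells were sequenced with the 10x Genomics 3′ kit, given as v3 in the labels and v3.1 in the study's methods. The authors deposited unnormalised UMI counts per gene and barcode, made with Cell Ranger on GRCm38. The file headers give version 5.0.0, while the study's methods name an earlier major version with an Ensembl annotation. The members and lists were chosen with earlier results of these data known.

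Barcodes with at least 200 genes, at most 10% mitochondrial UMIs and no UMI of 13 contaminant genes were retained, as in the study, and no doublet caller was run. UMI counts were summed over the barcodes of each of 5 gates in each of 3 libraries. Depth per library was 3766526 to 20607903 UMIs, and Poisson and binomial 95% intervals are exact and cover counting error only. A count of 0 was given an upper limit of 3 counts.

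Sums were compared with edgeR 4.0.16 (R 4.3.3, limma 3.58.1) with a term for gate and the library as a block, since the 5 sums of a library come from 1 cell suspension, and TMM factors of 0.900 to 1.12. A call is an adjusted p under 0.05. The fit was tried on simulated data, in which edgeR called 166 of 200 genes given a log2 change of 2, up or down, in the Fmod gate, among 175 calls. The data were drawn with a fixed dispersion and no library effect, so they do not test the library block. DESeq2 1.42.0 was an alternative. Levels were computed with Python 3.11.15, numpy 2.4.6, pandas 2.3.3 and scipy 1.17.1, and drawn with matplotlib 3.10.9. B cell barcodes held UMIs of Cd79a and Cd79b and none of Col1a1, Col1a2 and Col3a1.

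The text names the 8 members, the other serpins called in any contrast, the 3 genes of each list with the highest mean CPM, and for each member with at least 200 UMIs the 3 genes with the highest correlation. Genes outside this rule are marker genes or are named as chosen after their values were seen. The result of 1 other serpin that the rule names is not reported here. Lymph nodes of several mice were pooled per library, so p-values weigh differences between gates against their variation from library to library, not between mice.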

Additional observations from a re-analysis of the deposited data

Results flagged for a closer look

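The 1-IC library and the 2-IC libraries differed in sign for 3 ratios of a gate to the mean of the other 4 gates. The difference was not tested, because 1-IC is a single library. For Serpina3n in the Fmod gate the log2 ratio was -0.68 in 1-IC and 0.90 and 0.96 in 2-IC replicates 1 and 2. For Serpina3g in the Fmod gate it was -0.57 in 1-IC and 0.54 and 1.03 in the 2-IC libraries. Both 1-IC values rest on 4 UMIs in 10 barcodes. For Serpina3n in the Inmt gate the log2 ratio was 0.70 in 1-IC and -0.00335 and -0.37 in the 2-IC libraries.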

How the results depend on the processing

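The ratio of each of 7 serpins in its leading gate stayed positive in all 84 alternatives and moved by less than its spread over libraries in 78. The leading gate was taken as the highest in these same data, so the positive sign carries little information. The spread is each serpin's own SD, 0.93 for Serpina3n and 0.11 for Serpinf1, so the same shift can count as a move for 1 serpin and not for another. Serpinf1 moved to 1.45 with at least 2 UMIs of the gate gene and to 1.00 with barcodes assigned to the gate gene with the most UMIs. Serpinb1a moved to 2.37 after thinning, 1.12 without Cr2 barcodes low in Malat1, 0.99 without the contaminant filter and 1.98 without shared barcode sequences, an alternative added after seeing the data. Leaving out 1 library gave ranges of 2.69 to 3.81 for Serpina1e, 0.70 to 1.05 for Serpina10, 0.11 to 0.93 for Serpina3n, 0.37 to 0.80 for Serpina3g, 1.68 to 1.79 for Serpinb1a, 1.20 to 1.30 for Serpinf1 and 0.34 to 0.71 for Serpinh1. The gate with the highest mean changed in at least 1 alternative for Serpina10, Serpina3n, Serpina3g and Serpinh1, and in none for Serpina1e, Serpinb1a and Serpinf1.

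Over the 5 contrasts 2797 calls were made, 16 of them of serpins other than the members. These became 914 and 5 after thinning, where only 1871 genes and 4 other serpins were tested, against 6755 and 9 in the main fit. With no replicate block they were 1029 and 8 from the same genes tested as in the main fit, so the counts depend on the pairing of sums within a library. Without the contaminant filter there were 5363 calls, with 9085 genes tested in each contrast. There were 1274, with 4232 genes tested, without barcodes holding B cell or myeloid UMIs, also added after seeing the data. Leaving out 1 library gave 1383 to 2134 calls and 10 to 14 of other serpins, the lowest without 2-IC replicate 1. Apart from the fewer UMIs, barcodes or libraries of these alternatives, the cause was not tested. Depth limits the Fmod gate of 1-IC most, where 3 counts equal 44.5 CPM.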

Other observations

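Some serpins also differed between barcodes set apart by state rather than by gate. Retained barcodes with at least 2 UMIs summed over the interferon response genes Ifit1, Ifit3, Iigp1 and Cxcl10 held 80.5, 154 and 102 CPM of Serpina3g in 2-IC replicate 1, 2-IC replicate 2 and 1-IC, and the other barcodes held 59.1, 89.3 and 47.7 CPM. Serpina3g was higher in the interferon barcodes of each library, and so were Serpina3n, Serpinf1 and Serpinh1. Serpina3n was at 246, 266 and 102 CPM against 208, 174 and 98.9 CPM. Serpinf1 was at 306, 261 and 217 CPM against 257, 216 and 181 CPM, and Serpinh1 at 1111, 1134 and 842 CPM against 935, 1002.5 and 661 CPM. Serpina1e was lower in the interferon barcodes, at 18.4, 3.54 and 38.2 CPM against 72.0, 35.5 and 114 CPM. Interferon barcodes were deeper, with medians of 6287, 17413 and 7495 UMIs against 4278, 12344 and 5338 UMIs, and the part of depth was not tested.

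Barcodes with at least 2 UMIs of the neutrophil chemokine gene Cxcl1 held 337, 261 and 259 CPM of Serpinf1, against 208, 203 and 154 CPM in the others. Serpinh1 was at 1069, 1175 and 845 CPM against 913, 899 and 640.5 CPM, and Serpina3n at 244, 235 and 125 CPM against 196, 195 and 86.4 CPM. All 3 were higher in the Cxcl1 barcodes of each library, and Serpina1e was lower, at 26.3, 11.5 and 14.0 CPM against 83.8, 32.2 and 135 CPM. Cxcl1 barcodes were also deeper, with medians of 5417, 16045 and 6732 UMIs against 4225, 12935 and 5508 UMIs. Both splits pool all gates, Cxcl1 itself averaged 308 CPM in the Cr2 gate and 1357 CPM in the Inmt gate, and the part of the gate mix was not tested.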
